A study of Danio rerio with 4 samples.

Results

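The baseline profile of the sorted control cells rests on the 2 arrays of embryos injected with a control morpholino, out of 4 arrays in the series. The other 2 arrays, of miR-34b morpholino embryos, were not used. Per the labels, both control arrays carry RNA of GFP-positive cells from zebrafish (Danio rerio) of strain AB and genotype Tg(cmyb:EGFP), taken 3 days post fertilization. A block of tissue with the kidney in it was cut out, digested with 0.25% trypsin for 1 hour and strained through a 40 um mesh. From the suspension, 20000 GFP-positive cells were sorted by flow cytometry, and 100 ng of total RNA was amplified and hybridised to an Affymetrix zebrafish array. In the labels the cell type is given as kidney multiciliated cells, and the replicates are said to be independent biological sets. Neither the number of embryos in each pool nor the purity of the sort is given in the labels.

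The pronephros is the first kidney of the fish larva. Its tubules carry multiciliated cells, whose bundles of motile cilia drive fluid towards the cloaca, scattered among transporting cells that bear a single cilium. The reporter uses the promoter of cmyb, an older name of myb. That gene encodes a transcription factor of blood stem and progenitor cells, and in mouse airway it is also needed for multiciliated cell formation. At this stage the kidney region holds blood-forming tissue beside the tubules, and trunk muscle, skin, gut, liver, pancreas and spinal cord lie close by.

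Levels are log2 signals, given as control replicate 1 (array 1) and control replicate 2 (array 2). Where a gene had several probe sets the brightest was taken, which left 8793 named genes with a median of 8.0. Each array also carries 20 control probe sets for sequences that zebrafish lacks, 17 of them tag sequences and 3 of them bacterial tryptophan genes. The brightest of these had a log2 signal of 4.93 on array 1 and 3.71 on array 2, and this limit is called the ceiling here. A gene counts as above the ceiling where it exceeded it on both arrays. A gene counts as among the brightest 10% where it ranked there among the 10795 probe sets with 1 gene symbol on both arrays. Of all named genes, 7429 lay above the ceiling (84.5%) and 958 among the brightest 10% (10.9%). The signal of a probe set also depends on how well its probes respond, and it is not scaled to transcript length, so levels and ranks of different genes are a description and carry no test. The ceiling takes no account of probes that pick up a related zebrafish transcript. In sorted bulk RNA, fewer cells of a type and less RNA per cell cannot be told apart.

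The brightest transcripts were mostly those of general cell upkeep. COX1, a mitochondrially encoded subunit of cytochrome oxidase, was the brightest named gene at 14.92 and 14.58, and actc1b, a muscle actin, came next at 14.87 and 14.42 on the brightest of 4 probe sets, of which the dimmest averaged 4.54. Of the 20 brightest named genes, 15 encode cytosolic ribosomal proteins, rps14 at 14.54 and 14.32 being the first of them, and rack1, a ribosome-bound scaffold protein, had 14.61 and 14.21. Among the 200 brightest of the 8793 named genes, 69 were ribosomal protein genes and 33 stood in the list of broadly expressed genes. These sets overlap, and rpsa, rpl4, rps6 and rpl8 are among the genes counted in both. The muscle list gave 13 of its 66 genes and the granulocyte and mast cell list 7 of 24. The immediate early and heat shock list gave 6 of 68, the macrophage list 5 of 33 and the epidermis list 5 of 63. From the cell cycle list came 2 of 77. The tubule list gave 1 of 29, the axoneme list 1 of 63 and the basal body list 1 of 31. The red cell, liver and intestine lists gave 1 each. From the other lists, among them multiciliation regulators, intraflagellar transport and blood stem cell factors, 0 of the 200 came. All 74 ribosomal protein genes were above the ceiling, with a median of 13.85, and so were all 59 broadly expressed genes, with a median of 13.08. Actin actb1 had 13.75 and 13.47, and the translation factor eef1a1l1 averaged 14.12 over the arrays. The glycolytic gene gapdh had 13.35 and 13.29. Most genes of these lists were slightly brighter on array 1. They were 70 of the 74 ribosomal protein genes, with a median difference of 0.19, and 46 of the 59 broadly expressed genes, with 0.11. Genes shared by these sets count in both. All 18 spike-in controls added at the array step were also brighter on array 1, with medians of 12.25 and 12.02. Whether these differences share a source was not tested. Over all 7429 named genes above the ceiling, 3803 were brighter on array 1 and the median difference was 0.01.

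**Figure D1:**
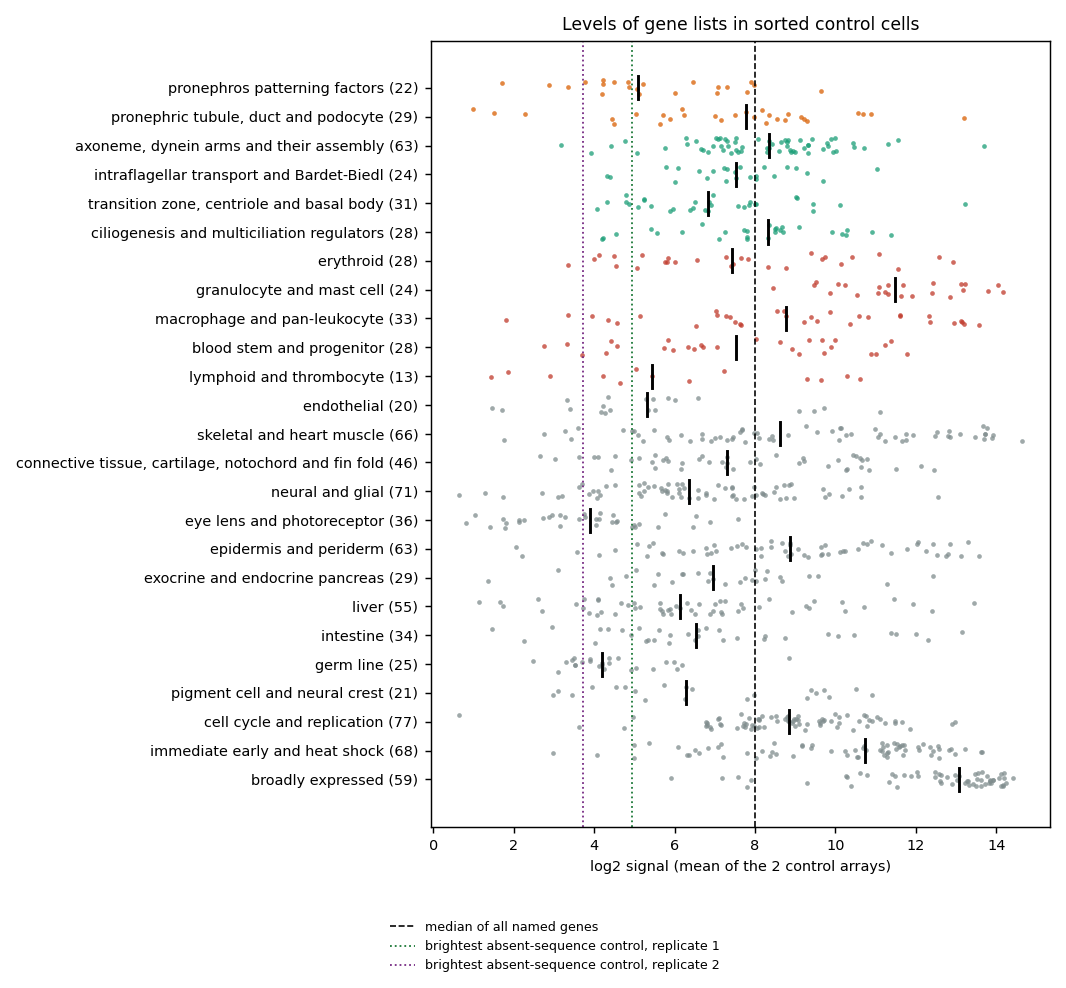
Log2 signal (x axis, mean of the 2 control arrays) of the genes of 25 lists (y axis, number of genes with a probe set in brackets). Each point is 1 gene and each black bar a list's median. The dashed line is the median of all named genes, and the dotted lines are the ceilings of the arrays. The granulocyte and mast cell list has a median of 11.47 and all its points lie right of both dotted lines.

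The labelled cell type was first set against genes of motile cilia. Of the 63 axoneme, dynein arm and assembly genes with a probe set, 59 lay above the ceiling, against 84.5% of all named genes, and 3 were among the brightest 10%, against 10.9%. Their median was 8.35, beside 8.0 over all named genes. The 3 were ak1, cfap20 and enkur. Adenylate kinase ak1, whose mammalian counterpart is also abundant in skeletal muscle, had 13.82 on array 1 and 13.55 on array 2. The axonemal protein gene cfap20 had 11.61 and 11.48. The gene enkur, which encodes a protein of sperm and ciliary axonemes in mammals, had 11.42 and 11.18. All 3 were near-equal on both arrays, and spata4 came next at 10.83 and 10.58.

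Members of the same structure differed widely in signal. The inner-arm dynein subunit dnali1 had 10.57 and 10.33, and ccdc39, which encodes part of the ruler that spaces dynein arms along the doublet, had 9.52 and 9.11. Of the radial spoke genes, rsph1 had 10.27 and 9.77 and rsph14 had 7.72 and 7.33. Tektins are filament proteins inside the doublet microtubules. Tektin tekt1 had 9.88 and 9.74, and tekt3 had 8.54 and 8.17, both above the median of all named genes. The dynein assembly factors lay lower, with dnaaf1 at 7.50 and 7.31 and zmynd10 at 7.04 and 7.27. The 4 members not above the ceiling were dnai2a, styxl1, dnai1.1 and dnah9. Of these, dnai2a and dnai1.1 encode intermediate chains and dnah9 a heavy chain of outer dynein arms. Their probe sets read 4.64 and 4.89 for dnai2a, 4.12 and 3.74 for dnai1.1, and 4.23 and 2.13 for dnah9, so other axoneme genes were bright where these were at the level of the absent sequences on at least 1 array.

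Intraflagellar transport builds cilia by moving cargo along the axoneme, and the Bardet-Biedl complex carries membrane proteins on the same trains. Their median was 7.52. Of 24 such genes, 22 (91.7%) were above the ceiling and 1 (4.2%) was among the brightest 10%, against 84.5% and 10.9% of all named genes. That gene was bbip1, a small subunit of the Bardet-Biedl complex, at 11.08 and 11.01. The next 4 were complex B members: ift57 with 9.85 and 9.52, ift56 with 9.15 and 9.45, ift46 with 9.03 and 8.99, and ift52 with 8.8 and 8.77. Each lay above the median of all named genes on both arrays. Below it were bbs2 at 7.57 and 7.70 and bbs5 at 5.94 and 6.06. The 2 genes not above the ceiling were ift81, at 4.51 and 4.29, and kifap3b, at 4.34 and 4.30.

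Basal body, centriole and transition zone genes formed the dimmest of the ciliary lists. Their median was 6.83. Of 31, 26 (83.9%) lay above the ceiling and 1 (3.2%) was among the brightest 10%, against 84.5% and 10.9% of all named genes. The centrin gene cetn4, whose product sits in centrioles, had 13.33 and 13.14 and stood far above the rest. The gamma-tubulin gene tubg1 followed with 10.17 and 10.05, the centriolar satellite gene pcm1 with 9.39 and 9.48 and ofd1, a gene of the distal centriole, with 9.41 and 9.45. Of 3 probe sets for pcm1 the dimmest averaged 2.13. The transition zone genes mks1 (7.86 and 7.85) and tmem67 (7.98 and 8.02) sat at the middle of all named genes, as did sass6 (7.80 and 8.24), which encodes the cartwheel protein of new centrioles. Plk4, the kinase that starts centriole duplication, had 9.03 and 8.99.

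The regulators that turn cells towards multiciliation were mostly of middle or low signal, with myb as the brightest. Of the 28 with a probe set, 26 (92.9%) lay above the ceiling, against 84.5% of all named genes. Among the brightest 10% was 1 (3.6%), or 2 without array 2, against 10.9%. The median was 8.34. The gene myb had 11.54 on array 1 and 11.21 on array 2, ranks 654 and 848 of the 10795 named probe sets. As the reporter was built on its promoter, a bright myb signal goes with the gate that chose the cells. Foxj1a, foxj1b, gmnc and ccno, which are among the defining genes of the motile and multiciliated programmes, are not named for any probe set by the annotation at hand, so the label could not be checked on them.

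Rfx2, a transcription factor of ciliary genes, had 10.02 and 10.32 on its brighter probe set, while its other probe set averaged 5.09. E2f4 and e2f5 encode cell cycle factors that mouse multiciliated cells use to amplify centrioles. E2f4 had 9.87 and 9.96 on the brighter of 2 probe sets, the other of which averaged 5.22, and e2f5 had 5.12 and 5.72, the first well above the median of named genes and the second below it, though above the ceiling on both arrays. Their partners tfdp1a (10.33 and 10.19) and tfdp1b (8.58 and 8.75) were both above that median. Geminin, gmnn, which restrains replication licensing and binds the multiciliation factors, had 7.49 and 8.11. Foxn4, a forkhead factor of multiciliated cells in Xenopus, had 7.04 and 7.44 on the brightest of 3 probe sets, of which the dimmest averaged 4.26. The myb relatives mybl1 (8.46 and 8.52) and mybl2b (7.85 and 7.76) lay near the median of all genes. Tp73, a factor upstream of ciliary genes in mouse, had 4.16 and 4.23 and was not above the ceiling, and rfx4, with 4.65 and 3.80, was the other such gene.

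The Notch pathway limits how many pronephric cells become multiciliated. Among its genes in the regulator list, the ligands were brighter than the receptors. Notch genes of other lists were not compared. Ligand jag2b had 8.74 and 8.66, jag1a had 6.87 and 6.49 and jag1b had 6.07 and 6.29. Receptor notch3 had 5.84 and 5.27, and notch1a had 5.22 and 3.87, just above the ceiling. Her9, a repressor of the hairy family, had 10.94 and 10.88 and was the second brightest regulator. Signals of different probe sets are compared here, so this order describes the arrays. The ETS factors etv5a (9.25 and 8.94), etv4 (8.27 and 8.72) and etv5b (7.69 and 7.77), of which etv5a is known in zebrafish renal multiciliated cells, stood around the median of all genes. Ptgs1, a prostaglandin synthase, had 10.43 and 10.13, and abcc4, a transporter that exports prostaglandins, had 7.32 and 6.89. The remaining regulators, trrap, cdc20, cdc14b, tfdp2 and ing2, lay between 7.66 and 8.71 on every array.

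**Figure D2:**
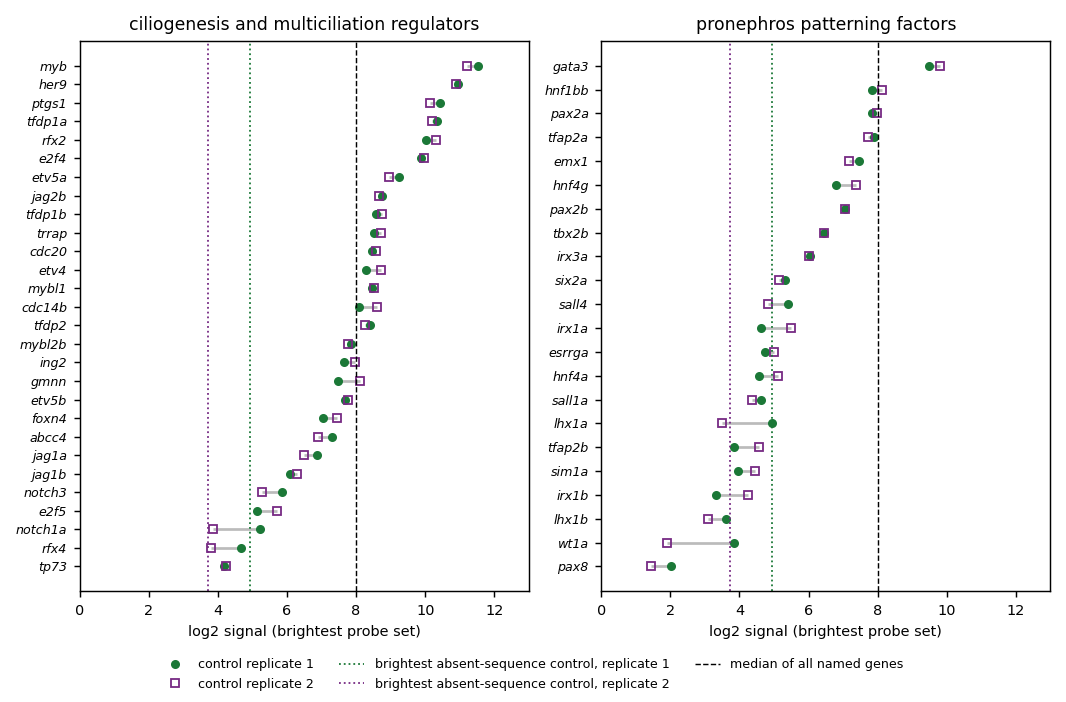
Log2 signal (x axis) on control replicate 1 (filled circles) and control replicate 2 (open squares) of every regulator of ciliogenesis and multiciliation (left) and every pronephros patterning factor (right) with a probe set. The dashed line is the median of all named genes and the dotted lines are the ceilings. Of the regulators, 26 of 28 lie above both ceilings, and of the patterning factors 11 of 22, against 84.5% of all named genes.

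Kidney patterning factors were among the dimmest genes. Of the 22 with a probe set, 11 lay above the ceiling, against 84.5% of all named genes, and 0 were among the brightest 10%, against 10.9%. Their median was 5.08, a level that 20.2% of the named probe sets did not reach. The count above the ceiling depended on array 1. Without it, 18 of 22 exceeded the ceiling of array 2, as did 8151 of the 8793 named genes. Without array 2, 12 exceeded that of array 1, as did 7457 of the named genes. The brightest was gata3, a factor of the hind pronephric duct and also of lymphoid cells, with 9.48 and 9.80. Hnf1bb, which patterns nephron segments, had 7.83 and 8.13, and pax2a, a factor of the early nephric lineage, had 7.84 and 7.97 on the brighter of 2 probe sets. Between 4.8 and 8 also lay tfap2a, emx1, hnf4g, pax2b, tbx2b, irx3a, six2a and sall4, and all 8 were above the ceiling on both arrays.

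The other 11 factors fell at or below the ceiling on at least 1 array. Pax8, the close relative of pax2a in the nephric lineage, had 2.01 and 1.44. Wt1a, the transcription factor of podocytes, had 3.85 and 1.89 on the brightest of its 3 probe sets. Both sat within the range of the absent sequences. Lhx1a, an early marker of the kidney field, had 4.94 and 3.50, marginally above the ceiling of array 1 and below that of array 2. The remaining 8, irx1a, esrrga, hnf4a, sall1a, tfap2b, sim1a, irx1b and lhx1b, ran between 3.08 and 5.48.

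Genes of the working tubule, duct and podocyte were brighter than the patterning factors. Of 29, 23 (79.3%) lay above the ceiling, against 84.5% of all named genes. Among the brightest 10% was 1 (3.4%), or 2 without array 2, against 10.9%. The median was 7.77, beside 8.0 over all named genes. Sodium pump subunits are abundant in salt-transporting epithelium but are used by all cells. The beta subunit gene atp1b1a had 13.20 and 13.17, and the alpha subunit gene atp1a1a.4 had 10.56 and 10.83, whereas a related alpha subunit gene, atp1a1a.5, had 2.75 and 0.28. Claudin cldn3c, a tight junction protein that also stands in the epidermis list, had 10.99 and 10.76. The ion channel gene trpm7 had 10.65 and 10.47.

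Markers with a narrower kidney pattern were of middle or low signal. Cdh17, a cadherin of the pronephric tubule and duct in zebrafish, had 8.67 and 8.96, above the median of all genes on both arrays. The proximal phosphate transporter gene slc20a1a had 6.03 and 6.42, and the distal chloride channel gene clcnk had 5.81 and 5.62. The distal sodium chloride cotransporter gene slc12a3, with 1.86 and 2.70, and magi2a, a scaffold gene of the podocyte slit diaphragm in mammals, with 0.93 and 1.04, were within the range of the absent sequences. Podxl, a podocyte surface protein gene, had 6.24 and 5.52. Also not above the ceiling were rhcgb, slc6a19b and slc26a1, at 4.39 to 5.17.

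Genes of granulocytes and mast cells were the brightest of all tissue lists. All 24 with a probe set lay above the ceiling, against 84.5% of named genes, and 17 were among the brightest 10%, against 10.9%. The 17 were 14 when ranks were taken over 1 probe set per gene, and also with the mean over probe sets or the dimmest probe set. The median of all 24 genes, 11.47, lay above 93.6% of the named probe sets. Cpa5, the carboxypeptidase that marks zebrafish mast cells, had 14.27 and 14.07, ranks 27 and 20. Lysozyme, lyz, a granule enzyme of myeloid cells, had 14.14 and 13.95, ranks 39 and 36. The collagenase gene mmp13a had 13.89 and 13.71, and the gelatinase gene mmp9 had 13.25 and 13.10. The first 3 of these effector genes had a higher signal on both arrays than any gene of the ciliary lists.

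The myeloid transcription factors were bright as well. Cebpb had 13.30 and 13.12, cebpa had 12.41 and 12.39, and cebp1, a factor of neutrophil maturation in zebrafish, had 11.65 and 11.72. Cebpb also stands in the immediate early list and cebpa in the liver list. The neutrophil peroxidase gene mpx, a standard marker of these cells, had 11.14 and 11.34 on the brightest of 4 probe sets, of which the dimmest averaged 2.62. Ncf1 (10.97 and 11.19) and cyba (11.32 and 11.29) encode parts of the NADPH oxidase that makes the respiratory burst, and srgn (11.71 and 11.56) encodes the proteoglycan of secretory granules. Anxa3b, an annexin, was the dimmest member at 8.30 and 8.58, still above the median of all named genes. The list's arrays differed by -0.32 to 0.28 over its genes.

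Several genes shared by leukocytes were bright, whereas several macrophage markers were dim. Of the 33 in the combined list, 29 (87.9%) lay above the ceiling and 9 (27.3%) among the brightest 10%, against 84.5% and 10.9% of all named genes. The median was 8.77. The 4 brightest were arpc1b, an actin branching subunit, with 13.71 and 13.43, laptm5, a lysosomal protein of blood cells, with 13.27 and 13.11, coro1a, an actin regulator of leukocytes, with 13.18 and 13.12, and cd63, a granule membrane protein, with 13.12 and 13.13. The leukocyte plastin gene lcp1 had 12.89 and 12.99, the myeloid factor spi1b had 12.24 and 12.40, and ptprc, which encodes CD45, had 9.35 and 9.45. All of these are shared by granulocytes and macrophages.

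The macrophage receptor gene csf1ra had 4.45 and 3.42, and its list neighbour marco, a scavenger receptor gene, had 5.17 and 3.98. Csf1ra was not above the ceiling, and marco exceeded it narrowly on each array. The complement gene c1qc (3.29 and 3.44), fgl2a (4.50 and 4.22) and the antigen presentation gene cd74a (1.44 and 2.19) were not above the ceiling either. Cd74b read 5.44 and 4.84. The 4 genes not above the ceiling are all such members of the combined list, whose lower and upper quartiles were 7.05 and 11.60. These dim genes are the low end of the list and do not describe its macrophage genes as a whole.

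**Figure D3:**
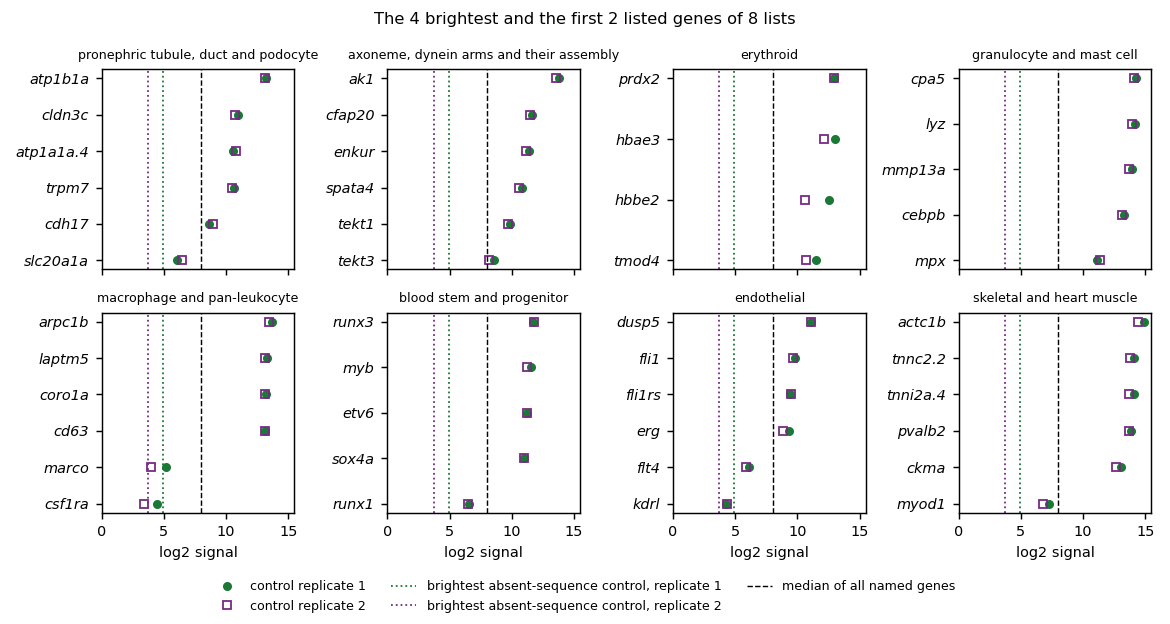
Log2 signal (x axis) on control replicate 1 (filled circles) and control replicate 2 (open squares) of the 4 brightest and the first 2 genes of 8 lists, with the median of all named genes dashed and the ceilings dotted. Lyz, cpa5 and actc1b lie near 14, whereas csf1ra and kdrl lie at or below the ceiling of array 1, and hbbe2 is separated by 1.97 between the arrays.

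Blood stem and progenitor genes had a median of 7.53, beside 8.0 over all named genes. Of 28, 23 (82.1%) lay above the ceiling and 4 (14.3%) among the brightest 10%, against 84.5% and 10.9% of all named genes. The 4 were runx3, a runt factor of blood cells, with 11.75 and 11.83, myb, etv6, an ETS factor, with 11.24 and 11.23, and sox4a with 11.01 and 11.01. Several factors of the early blood lineage were dimmer. Runx1, needed for the emergence of blood stem cells, had 6.52 and 6.45, tal1 had 5.93 and 5.76, lmo2 had 6.28 and 5.66, and the receptor gene kita had 6.14 and 5.35. All 4 were above the ceiling and below the median of all genes. In contrast, fli1 and erg, which also stand in this list and are given with the endothelial genes, lay above that median. The list's lower and upper quartiles were 5.82 and 9.76. The lymphoid factor ikzf1 had 9.65 and 9.70.

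Lymphoid and thrombocyte genes had a median of 5.44. Of 13, 8 (61.5%) lay above the ceiling and 0 among the brightest 10%, against 84.5% and 10.9% of all named genes. The antigen receptor recombinase genes rag1 (1.67 and 1.18) and rag2 (2.12 and 1.59) and the thrombocyte integrin gene itga2b (3.7 and 2.1) were within the range of the absent sequences on both arrays. The brightest members, f5 (10.43 and 10.79), ptgs1, gata3 and thbs1b (9.27 and 9.30), are used in other cells too, and ptgs1 and gata3 stand in other lists here.

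Red cell genes were uneven. Of 28, 24 (85.7%) lay above the ceiling and 2 (7.1%) among the brightest 10%, against 84.5% and 10.9% of all named genes. The median was 7.42, and without array 2 the count among the brightest 10% was 4. Prdx2, a peroxidase abundant in red cells and made by many cells, had 12.90 and 12.93. The embryonic globin genes hbae3 (13.02 and 12.12) and hbbe2 (12.55 and 10.58) were bright and higher on array 1, whereas hbbe3 had 5.42 and 4.95. Globin genes are closely alike in sequence, so their probe sets may share signal. The heme synthesis gene alas2 had 6.77 and 4.85, the anion exchanger gene slc4a1a had 7.65 and 6.89, and the erythroid factor gata1a had 5.59 and 3.43, the last not above the ceiling of array 2.

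Endothelial genes were mostly dim. Their median was 5.31. Of 20, 11 (55.0%) lay above the ceiling (17 without array 1), against 84.5% of all named genes. Among the brightest 10% was 1 (5.0%), against 10.9%. That gene was dusp5, a phosphatase gene, which left the brightest 10% when ranks were taken over 1 probe set per gene. It had 11.13 and 11.07. The ETS factor genes fli1 (9.81 and 9.64), fli1rs (9.43 and 9.50) and erg (9.33 and 8.88) followed. Of the receptors that define vessels, flt4 had 6.13 and 5.90, and kdrl, with 4.22 and 4.33, and tie1, with 2.57 and 4.06, were not above the ceiling.

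Muscle genes were bright in cells that the labels place in the kidney. Of 66, 61 (92.4%) lay above the ceiling and 21 (31.8%) among the brightest 10%, against 84.5% and 10.9% of all named genes. The median was 8.63, with 9.35 on array 1 and 8.36 on array 2. Sarcomere genes led the list. Beside actc1b these were the fast troponin genes tnnc2.2 (14.08 and 13.75) and tnni2a.4 (14.06 and 13.71) and the parvalbumin gene pvalb2 (13.86 and 13.69), and the creatine kinase gene ckma had 13.04 and 12.61. The determination factors of muscle precursors were low: myod1 had 7.23 and 6.79, while myf5 (3.57 and 3.30) and myf6 (3.80 and 1.72) were not above the ceiling. Which cells this signal came from was not tested.

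Genes of the skin list formed another bright group, though 5 of its 63 genes stand in other lists too. Of 63 epidermis and periderm genes, 57 (90.5%) lay above the ceiling and 14 (22.2%) among the brightest 10%, against 84.5% and 10.9% of all named genes. The median was 8.86. Profilin pfn1 had 13.68 and 13.44, and icn, an S100 protein gene, had 13.39 and 13.19. The keratin genes krt4, a periderm marker in zebrafish, with 12.13 and 11.96, and krt5, a basal marker, with 10.59 and 10.55, were close on the arrays. The adhesion gene epcam had 11.38 and 11.36 and the cadherin gene cdh1 had 10.17 and 10.19, and both are used by epithelia at large. The basal factor tp63 had 5.59 and 5.77, a low value above the ceiling.

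Connective tissue and cartilage genes had a median of 7.30. Of 46, 38 (82.6%) lay above the ceiling and 3 (6.5%) among the brightest 10%, against 84.5% and 10.9% of all named genes. The cartilage collagen gene col2a1a had 12.17 and 12.74, the cartilage matrix gene matn1 had 11.94 and 12.29, and the bone and skin collagen gene col1a1a had 11.61 and 11.40. The first pair was higher on array 2 and col1a1a on array 1, and without array 1 the count of 3 was 5.

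Neural genes had a median of 6.36. Of 71, 56 (78.9%) lay above the ceiling, against 84.5% of all named genes. Among the brightest 10% was 1 (1.4%), or 2 without array 1, against 10.9%. That was fabp3, a fatty acid binding protein gene, with 12.62 and 12.47, and which cells gave its signal was not tested. The neuronal RNA-binding protein genes elavl3 (8.97 and 8.26) and elavl4 (7.26 and 6.30) were both above the ceiling and higher on array 1. Lens and photoreceptor genes, from an organ of the head, had a median of 3.91. Of 36, 7 (19.4%) lay above the ceiling, against 84.5% of all named genes. Without array 1, 22 of the 36 exceeded the ceiling of array 2, as did 8151 of the 8793 named genes. The lens crystallin gene cryaa had 2.82 and 0.01. The photoreceptor gene pde6ha was the brightest at 6.55 and 8.61.

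Gut organ lists had medians below that of all named genes, and smaller shares of each lay above the ceiling than the 84.5% of all named genes. The smaller liver and pancreas shares depended on array 1. Without it, 30 of 34 intestine, 51 of 55 liver and 27 of 29 pancreas genes exceeded the ceiling of array 2. Of the 8793 named genes, 8151 did. Of 34 intestine genes, 26 (76.5%) lay above the ceiling and 5 (14.7%) among the brightest 10%, against 10.9% of all named genes, with a median of 6.54. The enterocyte lipid carriers fabp1b.1 (13.04 and 13.27) and fabp2 (11.63 and 12.36) were among the 5. Of 55 liver genes, 38 (69.1%) lay above the ceiling and 4 (7.3%) among the brightest 10%, with a median of 6.15. The brightest liver list members, gpx4b (13.44 and 13.46) and cebpa, are not liver-specific, and the hepatocyte lipid carrier fabp10a had 8.61 and 9.24 and transferrin, tfa, 9.83 and 10.49. Of 29 pancreas genes, 22 (75.9%) lay above the ceiling. Among the brightest 10% was 1 (3.4%, 2 genes without array 1), trypsin prss1 (11.75 and 13.09). The pancreas median was 6.96, with 6.38 on array 1 and 7.79 on array 2. Which cells these signals came from was not tested. The insulin gene ins had 5.39 and 5.76.

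Germ line and pigment cell genes were dim. Of 25 germ line genes 9 (36.0%) lay above the ceiling, against 84.5% of all named genes. Without array 1, 18 of the 25 exceeded the ceiling of array 2, as did 8151 of the 8793 named genes. Among the brightest 10% were 0, against 10.9%, and the median was 4.21. The germ cell helicase gene ddx4 had 1.81 and 4.40, and dazl had 4.08 and 3.71, and neither was above the ceiling on both arrays. Sycp1, a gene of the synaptonemal complex, had 8.89 and 8.81 on the brighter of 2 probe sets. Of 21 pigment cell and neural crest genes 14 (66.7%) lay above the ceiling and 0 among the brightest 10% (1 without array 2), with a median of 6.29. The melanocyte factor mitfa (4.57 and 4.52) and the crest factor sox10 (4.75 and 5.26) were not above the ceiling.

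**Figure D4:**
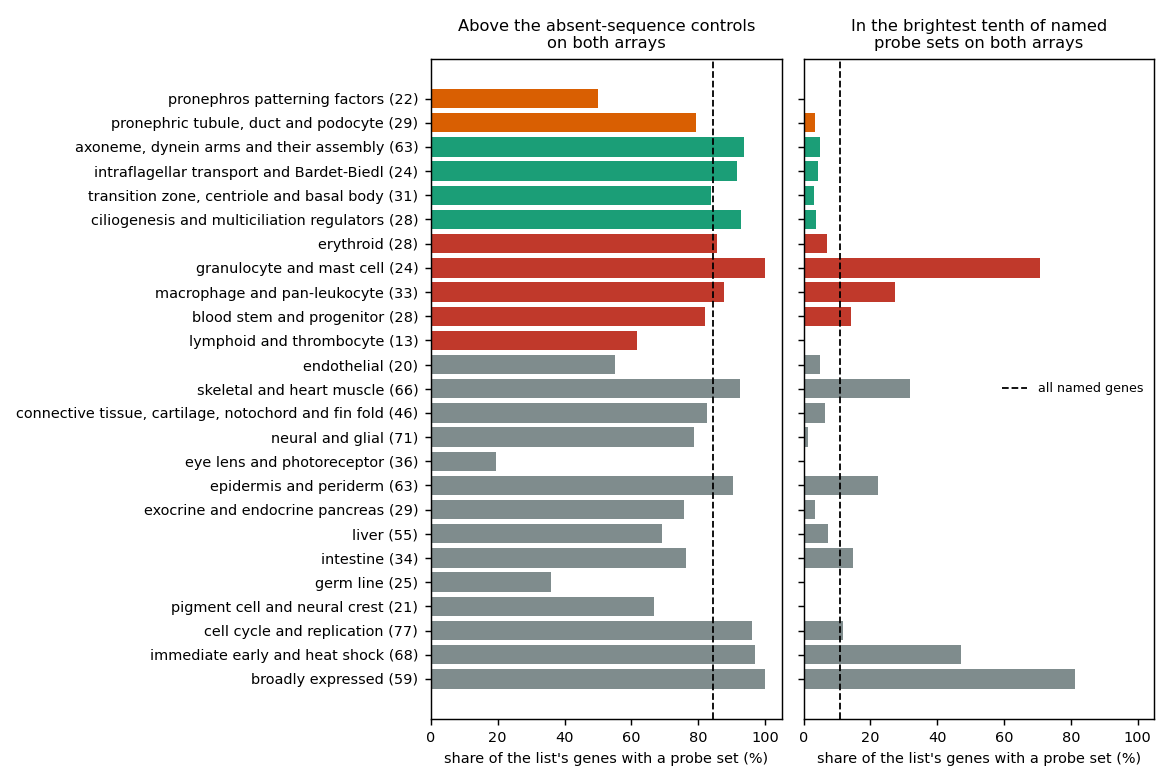
Share (x axis, percent) of each list's genes with a probe set that lay above the ceiling on both control arrays (left) and that ranked among the brightest 10% of named probe sets on both (right), for the lists on the y axis. The dashed lines are all named genes, at 84.5% and 10.9%. The granulocyte and mast cell list reaches 17 of 24 genes in the right panel.

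Of 77 cell cycle and replication genes, 74 (96.1%) lay above the ceiling and 9 (11.7%) among the brightest 10%, against 84.5% and 10.9% of all named genes. Ranked over 1 probe set per gene, the 9 were 6. The median was 8.85. The ribonucleotide reductase gene rrm1 had 13.06 and 12.90, the replication clamp gene pcna had 12.82 and 12.98, and mki67, which marks cycling cells, had 10.70 and 10.88. Stress genes were brighter as a list. Of 68 immediate early and heat shock genes, 66 (97.1%) lay above the ceiling and 32 (47.1%) among the brightest 10%, against the same 84.5% and 10.9%. Their median was 10.75. The early response factor fosab had 12.42 and 12.34 on the brightest of 4 probe sets, of which the dimmest averaged 10.80, and junbb had 12.59 and 12.55. The chaperone genes hsp90ab1 (13.77 and 13.51) and hspa8 (13.73 and 13.48), which are also abundant in resting cells, led the list. Cells without digestion and sorting were not analysed here.

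The arrays were alike for most genes and differed for some tissues. Over the 7429 genes above the ceiling, the difference of array 1 minus array 2 had a median of 0.01 and an SD of 0.39, 86.0% of genes lay within 0.5, and the arrays correlated at r = 0.982 across genes, which are not independent replicates. Of these genes, 3803 were brighter on array 1 and 3626 on array 2. The difference was 2-fold or more for 190 genes, 104 of them brighter on array 1 (1.40%) and 86 on array 2 (1.16%). Dim genes differed more. Of the 838 genes with a mean under 6, 10% were 2-fold or more apart, with a median size of 0.37. Of the 1514 genes between 10 and 12, 0.661% were, with a median size of 0.11.

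Muscle was higher on array 1. Of 61 muscle genes above the ceiling, 56 were brighter on array 1, as were 3803 of all 7429 genes above it. By 2-fold or more, 7 were brighter on array 1 (1.40% of all genes were) and 1 on array 2 (1.16% of all genes were). The list's median difference was 0.54. The widest gaps were in heart genes: the myosin light chain genes cmlc1 (9.61 and 6.36) and myl7 (8.79 and 6.48) and the cardiac troponin gene tnnt2a (9.09 and 7.62). The heart factors nkx2.5 (3.92 and 3.31), gata4 (2.90 and 3.64) and tbx5a (3.51 and 0.00) were not above the ceiling on either array. Neural genes had a median difference of 0.28, with 43 of 56 brighter on array 1, against the same 3803 of 7429. The collagen gene col10a1a differed most in this direction, with 8.04 and 4.26, and globin hbbe2 and the cytochrome oxidase gene cox4i1l (12.53 and 10.57) differed by 1.97 and 1.96.

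Pancreas, liver and intestine genes were higher on array 2. Of 22 pancreas genes above the ceiling, 19 were brighter on array 2, as were 3626 of all 7429 genes above it. By 2-fold or more, 12 were brighter on array 2 (1.16% of all genes were) and 0 on array 1 (1.40% of all genes were). The median difference was -1.13. The largest were the glucagon gene gcga (6.49 and 9.01), the chymotrypsin-like gene ctrl (8.37 and 10.74), the lipase gene cel.1 (5.84 and 7.94) and the amylase gene amy2a (6.24 and 8.27). The elastase gene cela1.6, outside the list, had 8.99 and 10.90. Of 38 liver genes, 30 were brighter on array 2, 6 of them by 2-fold or more (1.16% of all genes were), with a median difference of -0.48. Of 26 intestine genes, 21 were brighter on array 2, 3 of them by 2-fold or more (1.16% of all genes were), with a median of -0.32. The parvalbumin gene pvalb5 had the widest gap of all genes above the ceiling, with 5.04 and 8.85. Of the 7 lens and photoreceptor genes above the ceiling, 5 were brighter on array 2, with a median difference of -0.97. By 2-fold or more, 3 were brighter on array 2 (1.16% of all genes were) and 1 on array 1 (1.40% of all genes were). Each side of these differences is a single array, so they carry no test.

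The kidney, ciliary and blood lists had smaller median differences than the muscle and pancreas lists. They were 0.01 for patterning factors, 0.00 for tubule genes, 0.13 for axoneme genes, 0.06 for intraflagellar transport, 0.05 for basal body genes, -0.07 for the regulators, 0.08 for granulocyte genes, 0.03 for the macrophage and leukocyte list, 0.07 for red cell genes, 0.07 for blood stem genes and -0.16 for the lymphoid and thrombocyte list, where the value was 0.24 over all 13 genes of that list. Of the 59 axoneme genes, 42 were brighter on array 1, as were 3803 of all 7429 genes above the ceiling. Tubule genes brighter on array 2 by 2-fold or more were gcshb and fbp1b (7.63 and 8.72), both metabolic enzyme genes. The genes brighter on array 1 by that much were spag8 (7.0 and 5.57) among axoneme genes, notch1a among the regulators, hbbe2 and alas2 among red cell genes, and marco in the macrophage list.

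**Figure D5:**
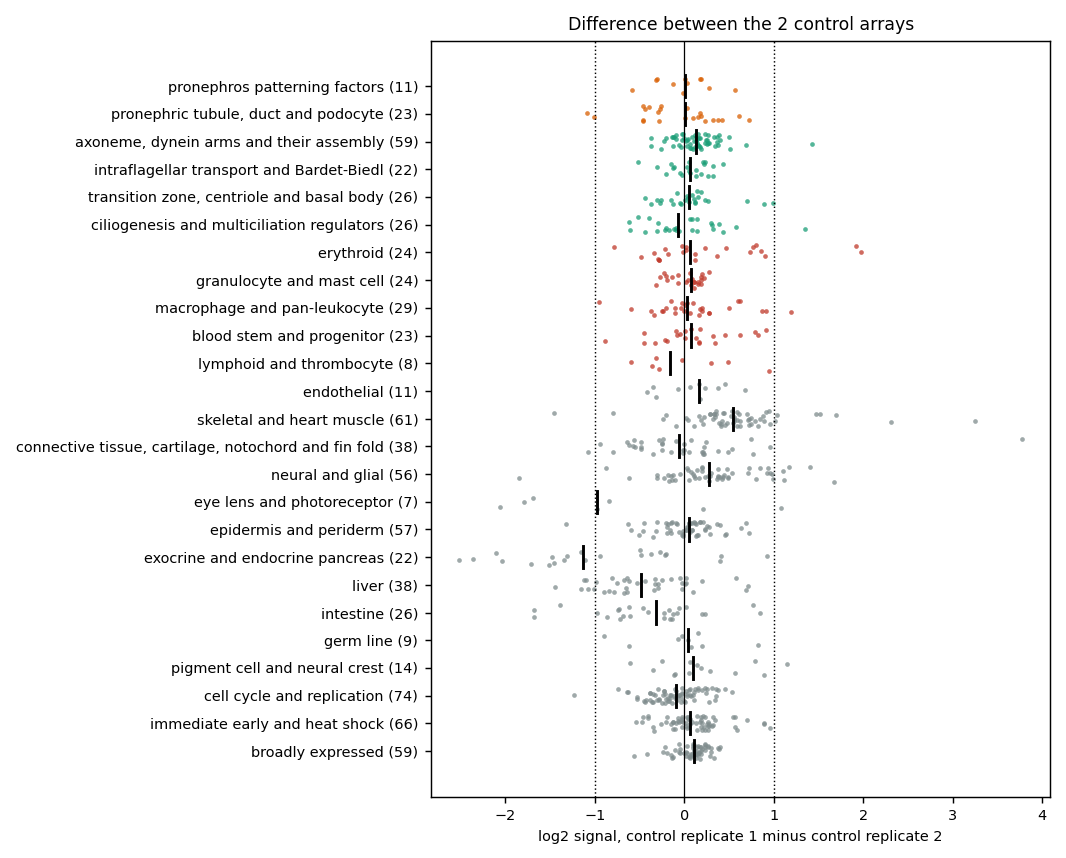
Difference in log2 signal (x axis, control replicate 1 minus control replicate 2) of genes above the ceiling on both arrays, for each list (y axis, number of genes in brackets). Each point is 1 gene, black bars are list medians and dotted lines mark a 2-fold difference. Muscle genes lie to the right with a median of 0.54 and pancreas genes to the left with a median of -1.13.

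The label and the sort were also set against the reporter. The annotation names no probe set for EGFP. A control probe set named for the plasmid pd2EGFP had 3.74 and 1.61, below the ceiling on both arrays. Other control probe sets with no gene name were bright, U43284-1_s with 12.38 and 12.20 and pDsRed1-1_s with 9.03 and 9.24. None of the sources used here says which of these, if any, matches the EGFP of this line. Detection of the reporter was therefore not tested. Spike-in controls added at the array step had medians of 12.25 and 12.02, and all 18 were brighter on array 1. Poly-A spike-ins added to the RNA had medians of 9.83 and 9.87. The deposited values describe sorted cells with bright genes from the granulocyte, leukocyte, muscle, epidermis and stress lists and middle-level axoneme genes. The share of multiciliated cells among them was not measured.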

How the data were processed

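The authors' deposited values are log2 signals per probe set from Affymetrix zebrafish arrays, and MAS5 is named, without a version, in the submitters' processing notes. The mean of the linear signals after trimming 2% at each end was 500.1 on both control arrays, so the deposited values were already scaled. The median of the 15617 probe sets was 7.18 on array 1 and 7.19 on array 2, and 149 and 189 probe sets stood at 0, the lowest value. Detection calls were not used. The 115 control probe sets were left out of gene counts. Names came from GEO's platform annotation: 10795 probe sets had 1 symbol, 135 several and 4572 none. Symbols were updated through a RefSeq gene table, in which 10711 probe sets matched and 1 symbol changed. Of 1695 genes in 25 lists, 965 had a probe set, 36 of them found through a synonym, and 28 stood in several lists. The members and lists were chosen with earlier results of these data known. Named genes are the 4 brightest and the first 2 of each list, every multiciliation regulator and patterning factor, the 20 brightest genes and the 8 with the largest array difference in each direction. Not all of these are printed, and other genes named were chosen after their values were seen. With 1 group of 2 arrays no test was made, and the number of arrays limits the precision. The counting was tested on simulated data. Python 3.11.15, pandas 2.3.3 and numpy 2.4.6 were used.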

Additional observations from a re-analysis of the deposited data

Results flagged for a closer look

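By their names, 46 control probe sets were not placed with the spike-ins, the absent-sequence controls or the named zebrafish genes. Of these 46, 6 lay above the ceiling on both arrays, which is a signal outside the gene measurements. Their mean log2 signals over the 2 control arrays were 8.50 for the probe set named for AJ002682-2_s, 9.26 for AY342347_s, 5.82 for J01636-1, 9.13 for pDsRed1-1_s, 12.29 for U43284-1_s and 14.98 for X03453-2_s. X03453-2_s, with 15.12 and 14.84, lay within the range of the spike-ins added at the array step on both arrays. What sequences the 6 match, an added spike-in included, was not tested. Groups of 2 arrays are too small for a check of outlying arrays.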

How the results depend on the processing

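No paired analysis was possible because only 1 group was used and no test was made. Ranking into the brightest 25% in place of 10% gave 2399 of the 8793 named genes. Among kidney and ciliary lists it gave 0 of 22 patterning, 4 of 29 tubule, 13 of 63 axoneme, 1 of 24 intraflagellar transport, 2 of 31 basal body and 6 of 28 regulator genes. From the blood lists came 7 of 28 red cell, 21 of 24 granulocyte, 13 of 33 macrophage and leukocyte, 9 of 28 blood stem and 2 of 13 lymphoid genes. Ranking among all 15502 probe sets that are no controls gave 2 tubule and 2 regulator genes among the brightest 10%, and ranking among 1 probe set per gene gave 0 intraflagellar transport genes and 0 endothelial genes. Of 22 pronephros patterning factors, 20 lay above the median of the absent-sequence controls and 18 above the TrpnX controls alone. Of the 8793 named genes, 8499 lay above that median and 8130 above the TrpnX controls. With each array left out in turn, 12 to 18 patterning factors lay above the ceiling, as did 7457 to 8151 of all named genes. Among the brightest 10% there were then 1 to 2 tubule, 1 to 2 regulator and 2 to 4 red cell genes. Leaving out array 1 moved list medians by -0.29 to 0.84 and leaving out array 2 by -0.58 to 0.72; the pancreas median was 7.79 without array 1 and the muscle median 9.35 without array 2. Quantile scaling moved them by -0.01 to 0.02. It also moved the median differences between the arrays, and small ones changed sign. The tubule median went from 0.00 to -0.10 and the granulocyte median from 0.08 to -0.02. The muscle median went from 0.54 to 0.46 and the pancreas median from -1.13 to -1.11. The mean over probe sets lowered the list medians of log2 signal by up to 0.61 and the dimmest probe set by up to 0.84. Weak signals near the ceiling of 4.93 on array 1 are the least certain, since that ceiling lies above that of array 2.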
